A study of Capra hircus with 6 samples.

Results

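The genes described here are 38 genes of DNA replication and S phase, chosen by name for their roles in origin licensing, the replisome, nucleotide supply, entry into S phase and the packaging of new DNA. Of these, 35 were found among the gene names of the deposited table of 27271 genes, each at 1 gene, and POLA2, PRIM1 and PRIM2 were not among those names. Enough counts for a test were present for 25 of the 35, out of 6574 genes tested in all. The choice of genes was made with earlier results of these data known. ORC4 is in the paper's list of its most significant genes from these libraries, so that its call below is not an independent finding.

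In a dividing cell, the origin recognition complex marks the sites where replication can begin and, with CDC6 and CDT1, loads the MCM helicase onto DNA before S phase. The DBF4-dependent kinase CDC7, with cyclin E and its kinase partner, then switches the helicase on together with CDC45 and the GINS complex, and polymerase alpha with its primase starts the new strands. Many of these genes are transcribed under control of E2F factors as cells pass from G1 to S phase. Preadipocytes are known to divide before they are committed to fat storage.

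Goat intramuscular preadipocytes, primary fat precursor cells taken from the muscle of young kids, received a negative control siRNA (NC groups, genotype labelled WT, n = 3) or an siRNA that silences LIPG, the endothelial lipase gene (Si-LIPG groups, genotype labelled LIPG knock down, n = 3). Both groups were given the same adipose differentiation treatment, which per the methods was 50 μmol/L oleic acid for 48 h. The comparison asks how the transcript profile differed between LIPG-silenced and control cells. The methods describe the replicates of the experiments as biological, but nothing in the labels ties a library to an animal or a separate culture, so that p values measure the spread between these libraries, which may in part be technical.

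The libraries held 36451898 to 52638817 reads, of which 524776 to 1051230 were counted on genes, 0.997% to 1.53% in the NC groups and 1.80% to 2.88% in the Si-LIPG groups. LIPG itself had counts of 0, 2 and 0 in NC and 0, 2 and 2 in Si-LIPG, too few to check the knockdown, so that LIPG gives no check of the group labels or of the direction of the changes below. The library protocol keeps the strand of each read, but the strand setting used in counting is not given in the sources used here. The FPKM of ND6, the mitochondrial protein gene encoded on the opposite strand to the others, was compared with the median FPKM of the 12 remaining protein genes of the mitochondrion. It was 54.2 to 99.3 times that median in the NC libraries and 22.6 to 49.8 times in the Si-LIPG libraries. This ratio thus did not overlap between the groups. Of all reads of a library, 91.6% to 93.7% were entered as lying on no gene feature, and 0.909% to 1.22% as not aligned. Whether the counting used the strand opposite to the genes was not tested. Reads of a gene's own transcript and reads from the opposite strand were not told apart in the counts below. The values of the members, FPKM included, may therefore not be levels of their own transcripts, and the part of this in them was not tested. Counts of mesenchymal genes such as COL1A1, COL1A2 and VIM were present in every library, DLK1 was at 0 in every library, 0 of 8 adipocyte markers had enough counts for a test, and LPL was at 0. Summed counts were 307 to 1292 for 8 myogenic markers, DES included, 0 to 7 for 4 endothelial markers and 9 to 21 for 4 immune markers. In bulk RNA, fewer cells of a type and less RNA per cell cannot be told apart.

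With TMM scaling the replication genes did not move together. At the study's criterion, a fold change over 1.5 with p under 0.05 before adjustment (edgeR's quasi-likelihood test on TMM-normalized counts), 4 of the 25 tested members were lower in the Si-LIPG groups, namely ORC4, DBF4, ORC1 and MCM7 (MCM7 turned positive when scaled to all reads), against a background of 12.9% of all tested genes. RRM1 was the 1 member higher at the criterion, against a background of 7.83%. The 5 members at the criterion were 20% of those tested, near the 20.7% of all tested genes. The 4 lower members also had a Benjamini-Hochberg adjusted p under 0.05, against a background of 5.54% of all tested genes lower at that threshold, 0.974% higher and 6.51% in either direction, and 0 members were higher at it. The log2 fold changes of the tested members had a median of 0.10, beside 0.16 over all tested genes, with 13 positive (58.4% of all tested genes) and 12 negative.

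The direction of the calls changed with how libraries were scaled. With library sizes alone, 8 of the 25 members were higher and 2 lower at the criterion, beside 24.2% and 6.01% of all tested genes. With scaling to all reads in the files 13 of 25 were higher and 0 lower, beside 46.1% and 0.0304%. Of the 25 members, 21 and 22 had a positive log2 fold change under these scalings, beside 13 with TMM. The median log2 fold change of all tested genes moved from 0.16 to 0.74 and 1.58 under the same scalings. The changes below are relative to the other genes of the library. TMM-normalized CPM are counts scaled to the reads counted on the tested genes of a library, multiplied by its TMM factor. On this scale 4 of the 25 tested members lay higher in every Si-LIPG library than in any NC library (background 15.2%). A further 4 lay lower in every one (background 13.4%) and 17 overlapped.

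**Figure D1:**
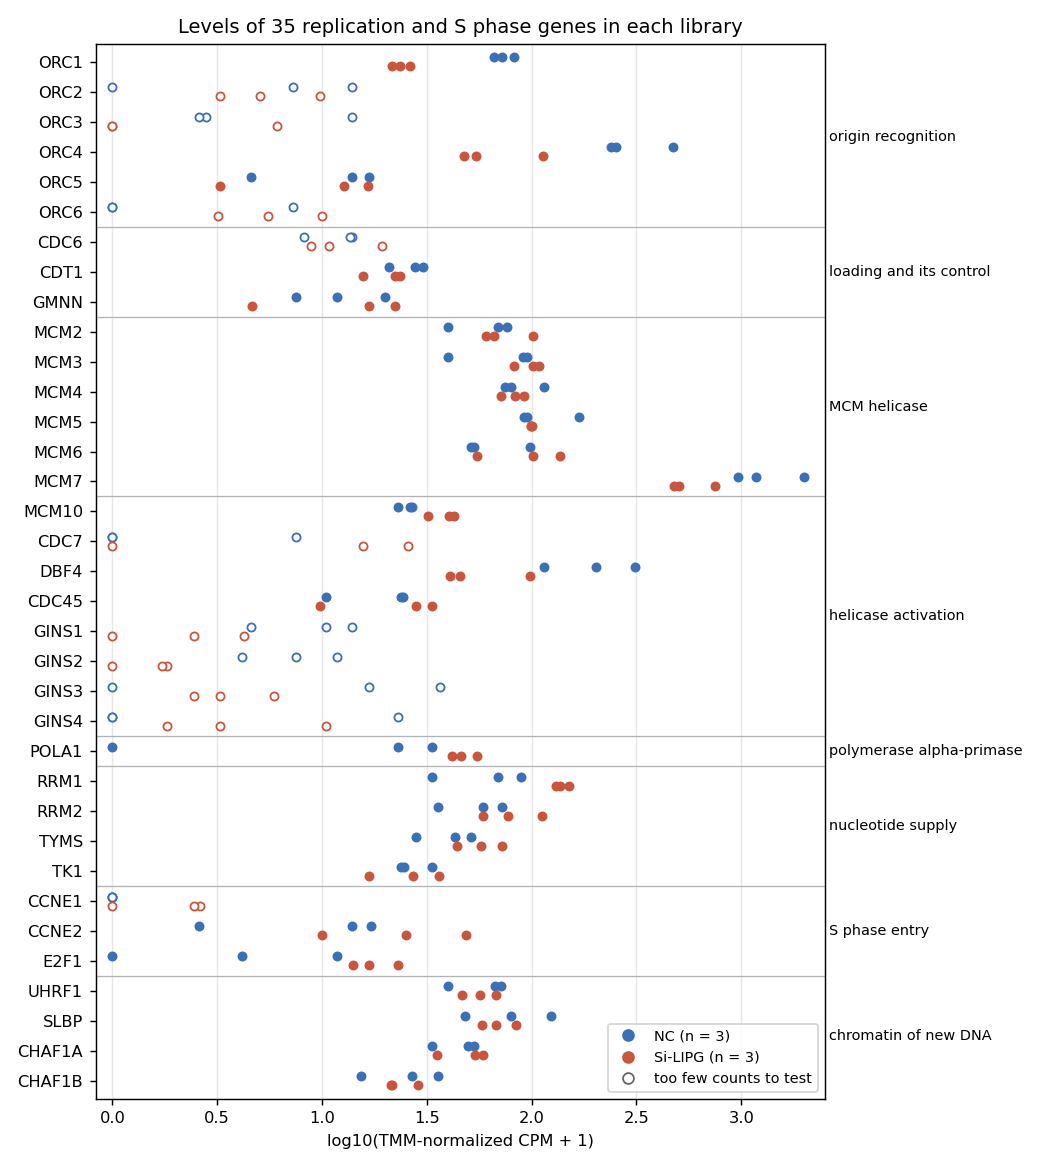
Levels of the 35 members found, as log10(TMM-normalized CPM + 1) on the horizontal axis, with 1 point per library (blue, NC, n = 3, and red, Si-LIPG, n = 3) and open points for members with too few counts to test. The points of ORC4, ORC1, DBF4 and MCM7 separate with NC to the right, those of RRM1 separate with Si-LIPG to the right, and MCM7 lies above every other member.

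Among the 6 origin recognition subunits, ORC1 and ORC4 were lower in the Si-LIPG groups, ORC5 did not meet the criterion, and ORC2, ORC3 and ORC6 had too few counts to be tested. ORC4 (ENSCHIG00000023781), a core ATPase-fold subunit of the complex, had counts of 145, 132 and 159 in NC and 99, 57 and 73 in Si-LIPG, given here and below in the order of replicates 1, 2 and 3. Its CPM was 470, 238 and 251 in NC and 112, 46.4 and 53.3 in Si-LIPG. All 3 Si-LIPG libraries lay below the lowest NC library, with replicate 1 the highest in each group. ORC4 was 4.53-fold lower (log2 fold change -2.18, SE 0.41, edgeR adjusted p = 0.0395). It was also the 1 tested member whose CPM over all reads of the library was lower in every Si-LIPG library than in any NC library (background 1.17%), at 3.10 ± 0.348 (SD, n = 3) in NC and 1.86 ± 0.294 (SD, n = 3) in Si-LIPG. Scaled to all reads its log2 fold change was -0.73 (edgeR adjusted p = 0.166).

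ORC1 (ENSCHIG00000012895), the large subunit whose ATPase activity is needed for helicase loading, had counts of 25, 36 and 45 in NC and 20, 31 and 28 in Si-LIPG. Its CPM was 81.1, 64.8 and 70.9 in NC against 22.6, 25.3 and 20.5 in Si-LIPG. The groups stood well apart and each was narrow, at 72.3 ± 8.19 and 22.8 ± 2.41 (SD, n = 3). ORC1 was 3.15-fold lower (log2 fold change -1.65, SE 0.41, edgeR adjusted p = 0.0400). Over all reads ORC1 overlapped between the groups, with a log2 fold change of -0.19 (edgeR adjusted p = 0.811).

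The remaining subunits were close to the counting floor. ORC5 had counts of 4, 2 and 10 in NC and 2, 19 and 16 in Si-LIPG, with a log2 fold change of -0.10 (SE 0.96) and groups that overlapped. The counts of ORC2 were 4, 0 and 4 in NC and 2, 5 and 12 in Si-LIPG, those of ORC3 were 4, 1 and 1 in NC and 0, 0 and 7 in Si-LIPG, and those of ORC6, the least conserved subunit, were 0, 0 and 4 in NC and 4, 11 and 3 in Si-LIPG. A count of 3, the limit that a count of 0 allows, corresponds to a CPM of 2.19 to 9.73 across the libraries, and these 3 subunits did not pass the filter on low counts. In DESeq2 and in edgeR without that filter, which took all 35 members, none of ORC2, ORC3 and ORC6 met the criterion. On the length-corrected FPKM scale the subunits were unequal in the NC groups, with ORC4 at 38.7 ± 5.01, ORC1 at 8.78 ± 1.30 and ORC5 at 1.69 ± 1.10 (SD, n = 3).

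Of the loading factors, CDC6 had too few counts to be tested, with a total of 60 over the 6 libraries. CDT1, which brings the helicase to the origin, and geminin (GMNN), which holds CDT1 in check, were tested and did not meet the criterion. Their log2 fold changes were -0.37 and 0.10, and both overlapped between the groups.

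The 6 subunits of the MCM2 to MCM7 helicase, which form 1 ring, were all tested and 1 was at the criterion. MCM7 (ENSCHIG00000027136) had counts of 614, 538 and 746 in NC and 661, 620 and 654 in Si-LIPG, so that the raw counts overlapped. Its CPM was 1991, 969 and 1176 in NC and 746, 505 and 478 in Si-LIPG. Every Si-LIPG library lay below every NC library on this scale. MCM7 was 2.39-fold lower (log2 fold change -1.26, SE 0.36, edgeR adjusted p = 0.0493). With all reads as the scale the sign turned, with a log2 fold change of 0.25 (edgeR adjusted p = 0.437) and overlapping groups.

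The other 5 subunits had much lower counts and none met the criterion. MCM2 had counts of 12, 42 and 43 in NC and 58, 124 and 82 in Si-LIPG, and MCM3 had 12, 52 and 57 in NC and 72, 132 and 137 in Si-LIPG. MCM4 had 35, 41 and 50 in NC and 73, 86 and 125 in Si-LIPG. The raw counts of MCM2, MCM3 and MCM4 were higher in every Si-LIPG library than in any NC library, while their CPM overlapped. Reads counted on genes were likewise higher in every Si-LIPG library, at 864882 to 1051230 against 524776 to 703680 in NC. The share of all tested genes with such raw counts was not computed. MCM5 had counts of 29, 93 and 58 in NC and 87, 122 and 135 in Si-LIPG, and MCM6 had 16, 28 and 62 in NC and 48, 124 and 186 in Si-LIPG, both overlapping. The log2 fold changes were 0.29 (SE 0.39) for MCM2, 0.35 (SE 0.38) for MCM3, -0.11 (SE 0.35) for MCM4, -0.26 (SE 0.35) for MCM5 and 0.53 (SE 0.42) for MCM6. The signs of MCM4 and MCM5 turned to positive with library sizes alone and with scaling to all reads.

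Per length, MCM7 stood apart from its partners in level as well. Its FPKM was 352 ± 47.0 in NC and 227 ± 26.9 in Si-LIPG (SD, n = 3), while the NC means of MCM2 to MCM6 lay between 9.19 for MCM3 and 26.4 for MCM4. Its mean FPKM over the 6 libraries was at the 96.0 percentile of the tested genes, and those of the partners were at the 42.2 to 72.2 percentiles. The goat MCM7 gene overlaps AP4M1 and the microRNA genes MIR106B, MIR93 and MIR25 in the RefSeq annotation of ARS1.2 and has COPS6 within 1 kb. AP4M1 had counts of 0, 0 and 12 in NC and 2, 11 and 17 in Si-LIPG, and COPS6 had 5, 65 and 90 in NC and 110, 133 and 140 in Si-LIPG. NC replicate 1, the highest library of MCM7 in CPM, was the lowest of COPS6.

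**Figure D2:**
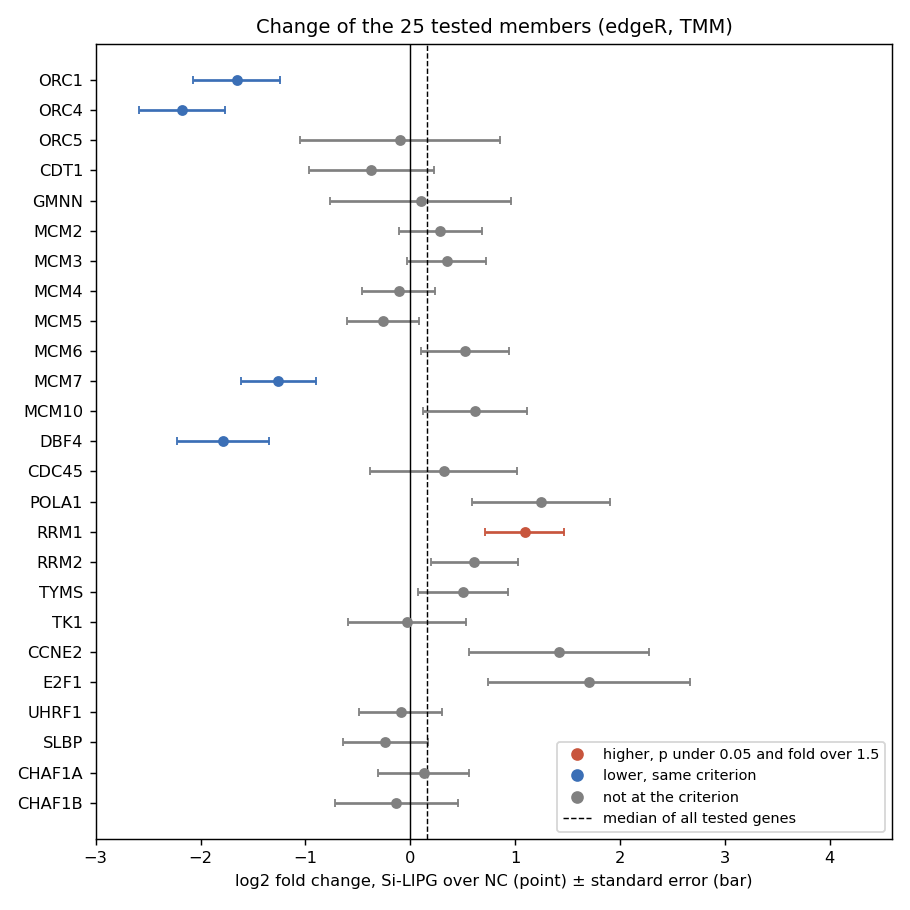
Change of the 25 tested members (log2 of Si-LIPG over NC) with its standard error (edgeR, TMM), in order of role. ORC4, DBF4, ORC1 and MCM7 (blue, lower at the criterion) lie between -2.18 and -1.26 (MCM7 at 0.25 when scaled to all reads), RRM1 (red, higher at the criterion) lies at 1.09, and the dashed line marks the median of all tested genes, 0.16.

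Among the helicase activation genes, DBF4 was lower and the other tested members did not meet the criterion. DBF4 (ENSCHIG00000020657), the regulatory subunit of the CDC7 kinase, had counts of 96, 112 and 72 in NC and 86, 49 and 61 in Si-LIPG. Its CPM was 311, 202 and 113 in NC and 97.0, 39.9 and 44.6 in Si-LIPG. The groups did not overlap on this scale, although NC replicate 3 and Si-LIPG replicate 1 lay near each other. DBF4 was 3.44-fold lower (log2 fold change -1.78, SE 0.44, edgeR adjusted p = 0.0400), and its log2 fold change was -0.33 when scaled to all reads (edgeR adjusted p = 0.560). CDC7 itself had counts of 2, 0 and 0 in NC and 0, 18 and 34 in Si-LIPG and did not have enough counts for a test. Its values in Si-LIPG were not alike, with replicate 1 at 0. In edgeR without the filter on low counts CDC7 was higher at the criterion, without an adjusted p under 0.05. With DESeq2 it did not meet the criterion.

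MCM10, which helps the helicase to open the DNA, had counts of 8, 14 and 14 in NC and 35, 38 and 57 in Si-LIPG. Its CPM was 24.4 ± 2.06 in NC and 37.4 ± 5.65 in Si-LIPG (SD, n = 3), higher in every Si-LIPG library, with a log2 fold change of 0.62 (SE 0.49, edgeR adjusted p = 0.537). CDC45, a part of the active helicase, had a log2 fold change of 0.32 with overlapping groups. GINS1, GINS2, GINS3 and GINS4, the other part, had total counts of 12 to 31 over the 6 libraries and were not tested. GINS2 had 2, 6 and 2 in NC and 0, 1 and 1 in Si-LIPG, and GINS3 had 11, 0 and 10 in NC and 2, 6 and 2 in Si-LIPG. With DESeq2, which took all 35 members, GINS2 and GINS3 were also lower at the criterion, without an adjusted p under 0.05.

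POLA1, the catalytic subunit of polymerase alpha, was the 1 member of the polymerase alpha-primase list among the gene names. It had counts of 0, 18 and 14 in NC and 40, 50 and 74 in Si-LIPG, with a CPM of 0, 32.4 and 22.1 in NC and 45.1, 40.7 and 54.1 in Si-LIPG. Every Si-LIPG library lay above every NC library. The log2 fold change of 1.24 (SE 0.66) did not meet the criterion (edgeR adjusted p = 0.307). POLA1 met it with a block for the replicate number (edgeR adjusted p = 0.127), with library sizes alone and with scaling to all reads. It also met it without the filter on low counts, in limma on log2(FPKM + 1) and without NC replicate 2. DESeq2, the covariate, limma on log2(FPKM + 0.1) and leaving out any other library did not bring it to the criterion.

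The nucleotide supply genes were all tested. RRM1 (ENSCHIG00000018799), the large subunit of ribonucleotide reductase, which makes the deoxynucleotides for replication, had counts of 10, 38 and 56 in NC and 133, 167 and 177 in Si-LIPG. Its CPM was 32.4, 68.4 and 88.3 in NC and 150, 136 and 129 in Si-LIPG. The lowest Si-LIPG library was above the highest NC library, and NC replicate 1 was the lowest. RRM1 was 2.13-fold higher (log2 fold change 1.09, SE 0.38), with an edgeR adjusted p of 0.0971 over all tested genes. Scaled to all reads it had a log2 fold change of 2.40 (edgeR adjusted p = 0.0462).

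RRM2, the small subunit that holds the radical, had counts of 22, 32 and 22 in NC and 51, 93 and 152 in Si-LIPG. Its CPM was 71.3, 57.6 and 34.7 in NC and 57.5, 75.8 and 111 in Si-LIPG, so that the groups overlapped, with a log2 fold change of 0.61 (SE 0.41, edgeR adjusted p = 0.443). Scaled to all reads RRM2 had a log2 fold change of 2.22 (edgeR adjusted p = 0.0476). TYMS, thymidylate synthase, had counts of 13, 15 and 32 in NC and 63, 53 and 77 in Si-LIPG, with a log2 fold change of 0.51 (SE 0.43). Its CPM was 39.9 ± 11.9 in NC and 56.8 ± 14.0 in Si-LIPG (SD, n = 3), with groups that overlapped. TK1, the thymidine kinase of S phase, had a log2 fold change of -0.03.

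Of the S phase entry genes, CCNE1 had a count of 0 in every NC library and of 0, 2 and 2 in Si-LIPG, too few to be tested. CCNE2, the other cyclin E gene, and E2F1, the transcription factor, had the largest positive log2 fold changes of the tested members, 1.42 (SE 0.86) and 1.71 (SE 0.96), and neither met the criterion. E2F1 had counts of 0, 6 and 2 in NC and 14, 16 and 30 in Si-LIPG and did not overlap. CCNE2 had counts of 4, 9 and 1 in NC and 42, 11 and 33 in Si-LIPG, and its CPM overlapped. MCM10, E2F1, GMNN and the other members outside the naming rule were singled out after their values were seen.

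The genes that act on the chromatin of new DNA did not meet the criterion. UHRF1, which reads hemimethylated DNA and recruits the maintenance methyltransferase, had counts of 12, 39 and 42 in NC and 59, 56 and 76 in Si-LIPG (log2 fold change -0.09, SE 0.40). SLBP, which binds the stem-loop of histone mRNA, had 38, 26 and 50 in NC and 74, 82 and 78 in Si-LIPG (log2 fold change -0.24, SE 0.40). CHAF1A, the large subunit of the CAF-1 histone chaperone, had 16, 18 and 31 in NC and 51, 65 and 47 in Si-LIPG (log2 fold change 0.13, SE 0.43). The raw counts of all 3 were higher in every Si-LIPG library, as were the reads counted on genes, while the CPM of all 3 overlapped. The share of all tested genes with such raw counts was not computed. CHAF1B, the middle subunit of CAF-1, had a log2 fold change of -0.13.

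The members can also be compared inside a library, where no library scaling enters but the genes chosen as divisor set the scale. None of MCM2 to MCM6 met the criterion. Their summed counts were 104, 256 and 270 in NC and 338, 588 and 665 in Si-LIPG. The counts of MCM7, ORC1, ORC4, DBF4, RRM1, RRM2 and POLA1 were divided by that sum, and those of the remaining members were not. This comparison was chosen after the values were seen and is given as a description. The ratios of the members at the criterion use the same counts as their calls and add no support to them. The ratio of MCM7 was 5.90, 2.10 and 2.76 in NC and 1.96, 1.05 and 0.983 in Si-LIPG. That of ORC4 was 1.39, 0.516 and 0.589 in NC and 0.293, 0.0969 and 0.110 in Si-LIPG. The ratio of DBF4 was 0.923, 0.438 and 0.267 in NC and 0.254, 0.0833 and 0.0917 in Si-LIPG. These 3 ratios were lower in every Si-LIPG library than in any NC library, as was that of ORC1, which was 0.183 ± 0.0517 in NC and 0.0513 ± 0.00862 in Si-LIPG (SD, n = 3). That of RRM1 was 0.0962, 0.148 and 0.207 in NC and 0.393, 0.284 and 0.266 in Si-LIPG, higher in every one. RRM2 overlapped, with a ratio of 0.139 ± 0.0662 in NC and 0.179 ± 0.0429 in Si-LIPG (SD, n = 3). The ratio of POLA1 was 0, 0.0703 and 0.0519 in NC and 0.118, 0.0850 and 0.111 in Si-LIPG, higher in every one. The MCM2 to MCM6 sum was itself higher in every Si-LIPG library, which lowers the ratio of a gene with level counts. The share of all tested genes that separate in this ratio was not computed.

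**Figure D3:**
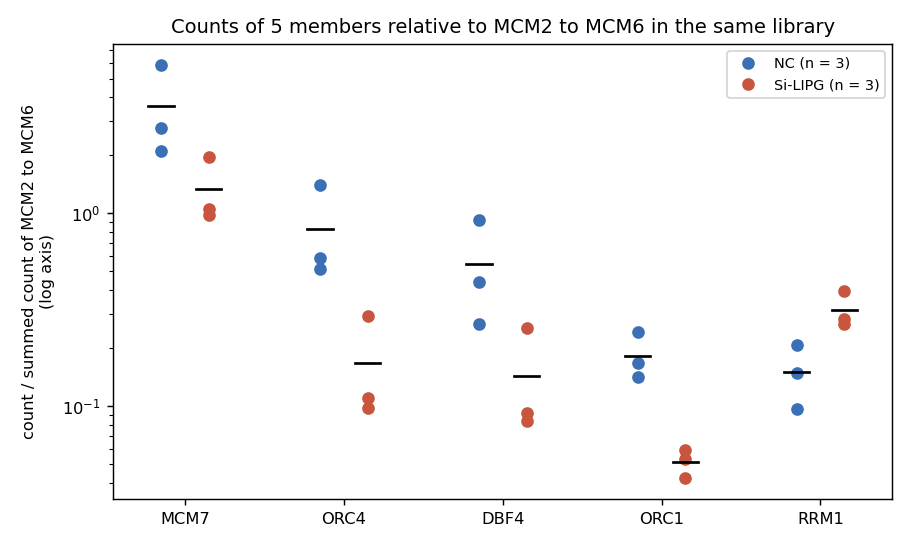
Count of 5 members divided by the summed count of MCM2 to MCM6 in the same library, on a log axis, with 1 point per library (blue, NC, n = 3, and red, Si-LIPG, n = 3) and a black line at the group mean. MCM7, ORC4, DBF4 and ORC1 are lower in every Si-LIPG library, RRM1 is higher, and the highest NC point of the 4 lower genes is NC replicate 1. The share of all tested genes that separate in this ratio was not computed.

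In CPM over all reads, 15 of the 25 tested members were higher in every Si-LIPG library than in any NC library, against a background of 51.9% of all tested genes, and 1, ORC4, was lower. The median log2 fold change of the members on that scaling was 1.503, beside 1.58 over all tested genes. ORC4, DBF4, ORC1 and MCM7 had the 4 lowest log2 fold changes of the members on this scaling too, and the next was CDT1 at 1.05.

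**Figure D4:**
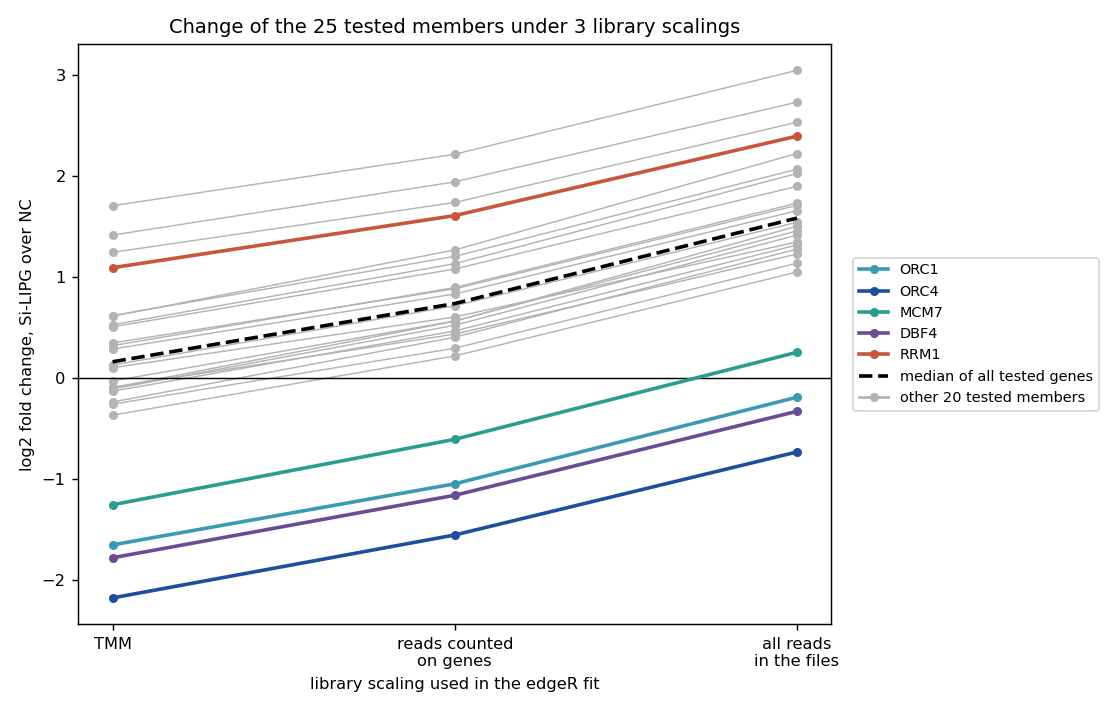
Change of the 25 tested members (log2 of Si-LIPG over NC) with TMM, with reads counted on genes and with all reads in the files as the library scaling, with 1 line per member and the median of all tested genes dashed. The median moves from 0.16 to 1.58, ORC4 stays below 0 throughout (-2.18 to -0.73), and MCM7 crosses from -1.26 to 0.25.

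Of 104 other genes of the replication fork, origin firing, nucleotide metabolism, cell cycle entry and chromatin assembly, 83 were found by name and 58 were tested. At the criterion 5 were higher and 6 lower, beside 7.83% and 12.9% of all tested genes. Together they were 19.0% of those tested, near the 20.7% of all tested genes. The median log2 fold change was 0.43, with 40 of 58 positive (58.4% of all tested genes). With scaling to all reads 37 of 58 were higher and 0 lower, beside 46.1% and 0.0304% of all tested genes. In the replication fork list, 2 of 17 tested genes were higher and 3 lower, beside the same 7.83% and 12.9%. RFC4, a subunit of the clamp loader, had counts of 225, 208 and 250 in NC and 226, 219 and 220 in Si-LIPG and was 2.51-fold lower in CPM (log2 fold change -1.33, SE 0.35, edgeR adjusted p = 0.0411, and 0.19 when scaled to all reads). RFC5, another subunit, had a log2 fold change of -1.28 with an adjusted p of 0.0902 (edgeR). RNASEH2C, of the RNase that removes RNA from DNA, had the lowest value of these lists at -1.78 (SE 0.43, edgeR adjusted p = 0.0395). POLD1 and RPA1, the catalytic subunit of polymerase delta and the large subunit of the single-strand binding protein, were higher at the criterion with log2 fold changes of 1.62 and 1.01. PCNA, the sliding clamp, had counts of 6, 8 and 16 in NC and 22, 58 and 34 in Si-LIPG and did not meet the criterion, with a log2 fold change of 0.71 (edgeR adjusted p = 0.541).

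Beyond the fork, 0 of 11 tested origin firing genes and 0 of 6 tested chromatin assembly genes met the criterion in the edgeR test, and 0 of either had an unadjusted p under 0.05. Over all tested genes 7.83% were higher and 12.9% lower at the criterion, the background for each of these short lists. Of 13 tested nucleotide metabolism genes, 2 were higher, DCK at 1.89 and ATIC at 1.45 in log2 fold change, and 1 was lower, IMPDH1. DCK phosphorylates deoxycytidine in the salvage pathway, and ATIC carries out the last steps of purine synthesis. Of 11 tested genes of the RB, E2F, cyclin and CDK list, CKS1B was higher at 1.72, and RBL2, a pocket protein of resting cells, and CDKN2B, a CDK inhibitor, were lower at -1.15 and -1.03. RFC4, RFC5, RBL2, CDKN2B and IMPDH1 turned positive when scaled to all reads, and RNASEH2C did not.

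In the RefSeq annotation of ARS1.2, 33 of the 35 members were matched once by name to a placed gene, and MCM2 and CDC45 were not. Another gene overlapped or lay within 1 kb of 12 of the 23 tested members, beside 50.4% of all tested genes matched. All 4 lower members had such a neighbour, as did 79.2% of all genes lower at the criterion and 38.2% of those higher at it. ORC4 overlaps ACVR2A, an activin receptor gene whose counts were 17, 13 and 6 in NC and 6, 11 and 32 in Si-LIPG, ORC1 lies beside PRPF38A and DBF4 beside LOC102176015. RRM1 overlaps a pseudogene, LOC108637588. The 12 tested members with a neighbour had a median log2 fold change of -0.10 and the 11 without one had 0.13, beside 0.03 and 0.28 over all tested genes with and without a neighbour. The part of reads from overlapping genes in these values was not tested.

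The 5 members at the criterion met it in 6 of 6 fits that left out 1 library each. The log2 fold changes in these fits were -2.68 to -1.81 for ORC4, -1.73 to -1.57 for ORC1, -2.30 to -1.40 for DBF4, -1.50 to -0.90 for MCM7 and 0.82 to 1.41 for RRM1. An adjusted p under 0.05 was reached by 0 members without NC replicate 1, NC replicate 2, Si-LIPG replicate 2 or Si-LIPG replicate 3, and in these 4 fits it was reached by 0 of all 6574 tested genes (edgeR), while 5 to 7 members had an unadjusted p under 0.05. It was reached by 3 members when NC replicate 3 was left out and by 4 when Si-LIPG replicate 1 was. When the percentage of reads counted on genes, higher in every Si-LIPG library than in any NC library, was added to the edgeR fit as a covariate, 1 member met the criterion (CCNE2, higher), beside 2.04% of all tested genes, and 0 of all tested genes had an adjusted p under 0.05. In that fit the log2 fold change was -1.498 for ORC1, -0.79 for ORC4, -0.25 for DBF4, -0.30 for MCM7 and 0.92 for RRM1.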

How the data were processed

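RNA-seq libraries of 3 NC and 3 Si-LIPG samples were grouped by their titles. The authors deposited a read count for each of 27271 genes per library, with 5 further entries for reads on no gene, and a table of FPKM values with gene names for 18989 genes. The FPKM match the counts within 1 percent. The submitters' processing notes name fastp, HISAT2, SAMtools and HTSeq, with no versions. The genome build and the strand setting of the counting are not given in the sources used here. Library sizes and tests did not include these entries, which held 97.1% to 99.0% of the reads of a library.

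Counts were filtered with filterByExpr (6574 genes kept), normalized by TMM (factors 0.601 to 1.37) and compared with edgeR's quasi-likelihood test (edgeR 4.0.16, limma 3.58.1, DESeq2 1.42.0, R 4.3.3), with Benjamini-Hochberg adjustment over all tested genes. The criterion was a fold change over 1.5 with p under 0.05 before adjustment, as in the study, which used DESeq2. FPKM served to compare levels between genes. The common biological coefficient of variation was 40.5%, and replicates differed beyond counting error (chi-square per degree of freedom 4.21 to 12.5), so none was counted as a copy. An exact permutation test of 3 against 3 cannot go below p = 0.1 and was not used. The floors cover counting error only. Standard errors come from the edgeR fit, which includes the spread between libraries, and each SD is over the libraries of a group. The steps were tested on simulated data.

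The 38 members and the gene lists were chosen with earlier results of these data known. Values in every library were given for each ORC subunit, each member at the criterion and the tested members of highest mean CPM until 20 were named. Of the other lists, at most 10 genes at the criterion by smallest p and PCNA were named, and IMPDH1 was named beyond them to complete its count. Alternatives were other scalings, DESeq2, other filters on low counts, a replicate block, a covariate, limma on log2(FPKM + 1) and log2(FPKM + 0.1), and leaving out each library. Neighbouring genes came from RefSeq names and positions of ARS1.2, and no coordinates were printed. Sequences, promoters and gene orientation were not analysed here.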

Additional observations from a re-analysis of the deposited data

How the results depend on the processing

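The count of 5 members at the criterion became 10 with library sizes alone (8 higher, 2 lower), 13 with scaling to all reads (13 higher, 0 lower), 1 with the covariate, 10 with limma on log2(FPKM + 1) (7 higher, 3 lower) and 8 on log2(FPKM + 0.1) (5 higher, 3 lower), and lay between 5 and 7 when 1 library was left out. The counts over all tested genes moved from 1361 to 1983, 3032, 134, 1912 and 1671 in the same order. Members with an adjusted p under 0.05, 4 in the edgeR test, were 1, 2, 0, 0 and 0 in the same order, and 0 to 4 with 1 library left out. In the last 3 of these settings, 1, 10 and 8 members had an unadjusted p under 0.05, in edgeR with the covariate and in limma. The 11 other replication genes at the criterion became 20, 37, 0, 22 and 20 in that order, 7 where each sample needed at least 10 counts, and 5 to 16 with 1 library left out, where the lowest counts were 5 without Si-LIPG replicate 3, 6 without Si-LIPG replicate 2 and 7 without NC replicate 1. The median log2 fold change of 0.10 became 0.60 with library sizes alone, 1.503 with all reads, and 0.52 and 0.55 in limma; it was -0.0374 with the replicate block and -0.00418 without Si-LIPG replicate 2, and fits that left out 1 library ranged from -0.00418 to 0.22. The cause of these shifts was not tested.

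The signs that turned included the following, in log2 fold change. With library sizes alone ORC5 was 0.56, MCM4 0.52, MCM5 0.29, UHRF1 0.43, SLBP 0.40, CDT1 0.22, TK1 0.56 and CHAF1B 0.47. With all reads ORC5 was 1.503, MCM4 1.42, MCM5 1.14, MCM7 0.25, UHRF1 1.23, SLBP 1.28, CDT1 1.05, TK1 1.46, CHAF1B 1.32, IMPDH1 0.50, RFC4 0.19, RFC5 0.22, RBL2 0.40 and CDKN2B 0.53. With at least 10 counts MCM4 was 0.18, UHRF1 0.15 and SLBP 0.0527. With the covariate MCM2 was -0.12, MCM3 -0.33, MCM4 0.0779, MCM6 -0.91, SLBP 0.57, CDT1 0.13, RFC5 0.27, IMPDH1 0.0300 and RBL2 0.0553. In limma on log2(FPKM + 1) and log2(FPKM + 0.1) ORC5 was 0.28 and 0.31, MCM4 0.47 and 0.48, MCM5 0.37 and 0.39, UHRF1 0.50 and 0.55, and SLBP 0.39 and 0.42. With 1 library left out ORC5 ranged from -0.58 to 0.39, MCM4 from -0.22 to 0.0898, MCM5 from -0.42 to 0.0920, UHRF1 from -0.29 to 0.0514, SLBP from -0.53 to 0.13, GMNN from -0.37 to 0.58, CDC45 from -0.0265 to 0.72, TK1 from -0.33 to 0.17, CHAF1B from -0.43 to 0.22 and CHAF1A from -0.0625 to 0.34.

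With the replicate number as a block, 6 members met the criterion (POLA1 added) and 5 had an adjusted p under 0.05 (RRM1 added, edgeR adjusted p = 0.0189), against 1550 and 925 of all genes. Same-numbered libraries deviated together with r of 0.210, 0.0639 and 0.105 across genes. Si-LIPG 1 and Si-LIPG 3 correlated best with their own number, and Si-LIPG 2 with NC 3 (0.0910). Whether the numbers pair the samples cannot be told from these values, and the labels do not say. The block was therefore kept as an alternative. The 10 members that were not tested had too few counts for the filter.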
